A study of Mus musculus with 7 samples.

Results

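The genes described here are 36 genes whose products copy DNA or carry out mitosis, chosen by name as a fixed list and read where a probe set of the array reports that gene and no other. Of the 36, 35 were measured, out of 18193 genes in all, and no probe set in the annotation used here names Ccnb1, a B-type cyclin of mitosis. Frozen liver was taken from 4 animals labelled mir-122 knockout (KO-03, KO-90, KO-91 and also KO-94) and from 3 WT, or wild-type, mice (labelled WT-27, WT-103 and WT-104), all of B6/129 background and 2 months old, with 1 Affymetrix array each. Hepatocytes contain more miR-122 than any other microRNA, and the knockout is set against wild type to find the liver transcripts that differ without it. The named probe sets include none for miR-122, and the genotypes could not be checked on it. The labels do not say whether the deletion is limited to one cell type, nor the sex, litter or batch of the mice. If these differed between the groups, their part could not be told apart from that of genotype. The p-values set a difference against the spread among livers of the same genotype, moderated over all genes.

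In a dividing cell the MCM helicase, loaded onto DNA by Cdc6 and Cdt1, opens the replication forks in S phase, and cyclin B with Cdk1 drives entry into mitosis, where motors, kinases and the spindle checkpoint separate the chromosomes. The genes of these steps are switched on together by E2F factors (replication) and by Foxm1 and the MuvB complexes (mitosis). Hepatocytes of a healthy adult liver rarely divide, and the same genes rise in a wave after partial hepatectomy. Bulk liver RNA also contains the RNA of other cells, so fewer cells of a type and less RNA per cell cannot be told apart here.

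Values are log2 expression values, on which 1 unit is a 2-fold difference, and differences are KO minus WT. Array medians lay between 4.65 and 4.72, and Pearson correlations across genes were 0.979 to 0.992 among KO arrays, 0.989 to 0.991 among WT arrays and 0.969 to 0.987 between KO and WT arrays. The number of arrays limits the precision. All 6 hepatocyte markers examined (Alb, Apoa1, Ttr, Serpina1c, Cps1 and Hnf4a) were well above the controls on all 7 arrays, with differences between -0.08 and 0.30. No detection calls accompany the values, so a floor was set on each array at its brightest Bacillus subtilis control probe set of 27, which was 4.86 to 5.23 on KO arrays and 4.71 to 5.10 on WT arrays. The same control set it on every array, and the next brightest lay at 3.71 to 4.11. Of the 35 genes, 13 lay above it on all 7 arrays, 9 on some and 13 on none. Over all genes, 54.5% lay above it on all 7 arrays.

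Nearly all replication and mitosis genes failed to pass the test between knockout and wild-type liver. In limma, with Benjamini-Hochberg adjustment over all 18193 genes at 0.05, 0 of the 35 were higher in KO and 1 was lower, while 34 did not pass. Over all genes 2.58% were called higher and 0.951% lower, together 3.53%. At an unadjusted p under 0.05, 5 were higher and 3 lower, together 22.9% of the 35, and 16.4% of all genes had such a p. The differences ran from -0.50 (Tpx2) to 0.68 (Ccnb2), 18 above 0 and 17 below, with a median of 0.02, against 0.01 over all genes. The 95% interval of the difference lay within a 2-fold change in either direction for 33 of the 35, against 89.9% of all genes. The exceptions were Ccnb2 and Ube2c, whose intervals reached 1.13 and 1.21. These intervals are for the probe set used. Other probe sets of Cdc20, Mcm2, Top2a and Rrm2 had intervals that reached 1.38, 1.28, 1.14 and -1.50. For the 13 genes under the floor on all arrays, the interval describes array signal and does not bound a change in RNA.

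**Figure D1:**
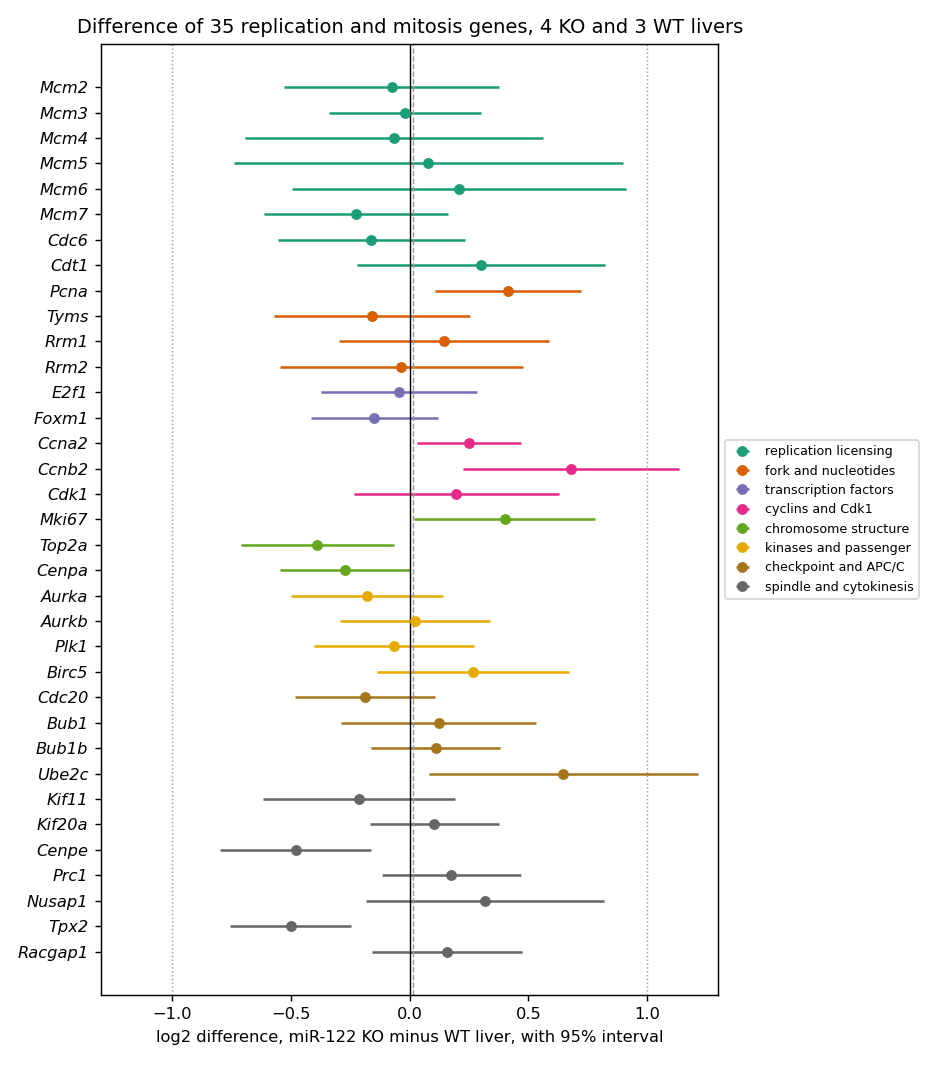
Log2 difference (KO minus WT, horizontal axis) of each of 35 genes with its 95% interval from limma, coloured by role; dotted lines mark a 2-fold change and the dashed line the median of all genes (0.01). The points lie between -0.50 and 0.68, and the intervals of Ccnb2 and Ube2c are the ones that pass a 2-fold change.

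In 4 genes (Pcna, Ccna2, Ccnb2 and Mki67) all KO arrays lay above all WT arrays, and in 4 (Top2a, Cenpa, Cenpe and Tpx2) all lay below. Each count is 11.4% of the 35, and over all genes 9.15% lay above and 6.62% below.

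Many of these genes carry, near their start, sequence elements known from cell cycle promoters, and 4 start regions are shown: Ccnb2 and Ube2c, the mitotic genes with the largest positive differences, Pcna, the replication gene with the largest difference, and Mcm5, the replication gene with the widest spread among KO livers. Each run covers 250 bases before and 50 after the annotated start (RefSeq, GRCm38.p6), 5′ to 3′ on the gene's strand. Ccnb2 is at chr9:70421505-70421804 (minus strand), Ube2c at chr2:164769679-164769978 (plus), Mcm5 at chr8:75109259-75109558 (plus) and Pcna at chr2:132253131-132253430 (minus). Capitals mark the cell cycle homology region, or CHR (TTTGAA), the CCAAT box bound by NF-Y (CCAAT), and the E2F elements TTCCCGC and TTGGCGC, each searched on both strands. The second E2F element and a CCAAT box read on the other strand can share letters.
Ccnb2: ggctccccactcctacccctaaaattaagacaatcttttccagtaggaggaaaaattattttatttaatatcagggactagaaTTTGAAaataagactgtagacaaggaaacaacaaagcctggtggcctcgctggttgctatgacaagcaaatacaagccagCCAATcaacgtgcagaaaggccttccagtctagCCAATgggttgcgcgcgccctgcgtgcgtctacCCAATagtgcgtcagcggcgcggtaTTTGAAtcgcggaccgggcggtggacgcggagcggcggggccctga
Ube2c: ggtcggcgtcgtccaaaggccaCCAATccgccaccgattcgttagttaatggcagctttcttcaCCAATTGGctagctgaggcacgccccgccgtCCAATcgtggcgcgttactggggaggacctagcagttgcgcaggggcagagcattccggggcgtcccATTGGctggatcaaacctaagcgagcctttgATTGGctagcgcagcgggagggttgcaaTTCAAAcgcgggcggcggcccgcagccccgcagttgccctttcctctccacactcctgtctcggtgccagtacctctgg
Mcm5: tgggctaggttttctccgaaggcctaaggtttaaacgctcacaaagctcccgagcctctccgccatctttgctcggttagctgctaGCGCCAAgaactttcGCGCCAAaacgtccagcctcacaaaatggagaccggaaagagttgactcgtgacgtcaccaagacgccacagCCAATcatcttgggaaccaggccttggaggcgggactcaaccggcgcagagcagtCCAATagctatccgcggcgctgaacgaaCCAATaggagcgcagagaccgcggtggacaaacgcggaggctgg
Pcna: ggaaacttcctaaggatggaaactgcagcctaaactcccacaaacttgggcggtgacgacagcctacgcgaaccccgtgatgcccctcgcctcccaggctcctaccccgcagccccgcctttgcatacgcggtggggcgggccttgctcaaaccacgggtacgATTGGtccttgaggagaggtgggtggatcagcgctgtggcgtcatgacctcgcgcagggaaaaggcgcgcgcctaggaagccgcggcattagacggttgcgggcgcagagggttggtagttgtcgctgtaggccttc
Ccnb2 has 3 CCAAT boxes starting 87, 54 and 21 bases before the start, so 33 bases apart, and a CHR at position 5 after it, besides another CHR 167 bases before. Ube2c has 6 CCAAT matches, a pair of which overlap as CCAATTGG, and a CHR 29 bases before the start. Mcm5 has 2 E2F elements, 164 and 149 bases before the start, and Pcna has a CCAAT box 87 bases before the start and no match to the other motifs in this window. Windows were given for 30 of the 36 genes, 32 windows in all. Among the 12 windows of replication genes 8 (66.7%) held an E2F element and 1 (8.33%) a CHR, and among the 20 windows of the other genes 3 held an E2F element and 14 (70.0%) a CHR. Of 32851 windows of all genes, 6.81% held an E2F element, 17.9% a CHR and 37.4% a CCAAT box, which 81.2% of the 32 windows held. The windows of Nusap1, E2f1, Tyms and Birc5 held none of the motifs. A match is a run of letters and not evidence of binding in these livers.

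Among the replication genes, none of the 12 measured passed the test, and the median difference was -0.03. They comprise the 6 helicase subunits Mcm2 to Mcm7, the loaders Cdc6 and Cdt1, the sliding clamp Pcna, thymidylate synthase Tyms, and Rrm1 and Rrm2, the subunits of ribonucleotide reductase, which makes deoxyribonucleotides. Pcna was 9.53, 9.92, 9.70 and 10.02 in KO-03, KO-90, KO-91 and, last, KO-94, against 9.33, 9.38 and 9.41 in WT-27, WT-103 and, last, WT-104. All 4 KO livers lay above the WT livers, which differed among themselves by under 0.1. The difference was 0.41 ± 0.14 (SE), with a limma adjusted p of 0.160.

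The helicase genes overlapped between the genotypes. Mcm2 was 6.18, 6.65, 6.57 and 6.87 in the KO livers in the same order, against 6.26, 6.76 and 6.91 in the WT livers. Its difference was -0.08 ± 0.20 (SE; limma adjusted p = 0.900). Mcm5 was 5.40, 5.47, 5.53 and 6.85 in the KO livers, against 5.26, 5.73 and 6.21 in the WT livers. KO-94 was thus more than 1 unit above the other knockouts, and the WT livers were themselves spread over nearly 1 unit. The other helicase subunits had differences of -0.02 (Mcm3), -0.07 (Mcm4), 0.21 (Mcm6) and -0.23 (Mcm7). Over all their probe sets these ran from -0.10 to 0.21 (Mcm3), -0.41 to -0.07 (Mcm4), -0.15 to 0.21 (Mcm6) and -0.37 to -0.09 (Mcm7).

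Cdt1, the loader that is destroyed once S phase begins, was 5.97, 6.19, 6.28 and 7.06 in the KO livers, against 6.11, 5.96 and 6.16 in the WT livers. Its difference was 0.30 ± 0.23 (SE; limma adjusted p = 0.588), with KO-94 alone well above the WT range. Rrm1 likewise had KO-94 above all other livers, at 6.43, 6.66, 6.60 and 7.30 in KO and 6.51, 6.67 and 6.63 in WT. Rrm2 differed by -0.03 with the probe set used and by -0.59 and -0.63 with its others, all 3 with overlapping groups and above the floor on some arrays. Cdc6 and Tyms lay under the floor on all 7 arrays, with differences of -0.16 each. Of the transcription factors of the programme, E2f1 differed by -0.04 and Foxm1 by -0.15, with overlapping groups, and both lay above the floor on all 7 arrays.

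Among the cyclins and Cdk1 all 3 measured genes had positive differences and none passed. Ccnb2, a B-type cyclin of mitosis, was 4.24, 4.60, 4.47 and 4.995 in the KO livers, against 3.92, 3.58 and 4.19 in the WT livers. The groups did not overlap, though KO-03 and WT-104 were close. Its difference of 0.68 ± 0.20 (SE) had a limma adjusted p of 0.120, and all 7 arrays lay at or under the floor, so no fold is given. Ccna2, the cyclin of S phase and G2, was 5.37, 5.35, 5.31 and 5.39 in the KO livers, against 5.17, 5.08 and 5.07 in the WT livers. The KO values were tightly grouped above the WT values, with a difference of 0.25 ± 0.10 (SE; limma adjusted p = 0.234). Its other probe set overlapped between the groups, at a difference of 0.16. Cdk1, the kinase that cyclin B activates, was 6.07, 5.86, 6.07 and 6.62 in the KO livers, against 5.83, 6.22 and 5.82 in the WT livers. These overlap, with a difference of 0.20 ± 0.19 (SE; limma adjusted p = 0.686).

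**Figure D2:**
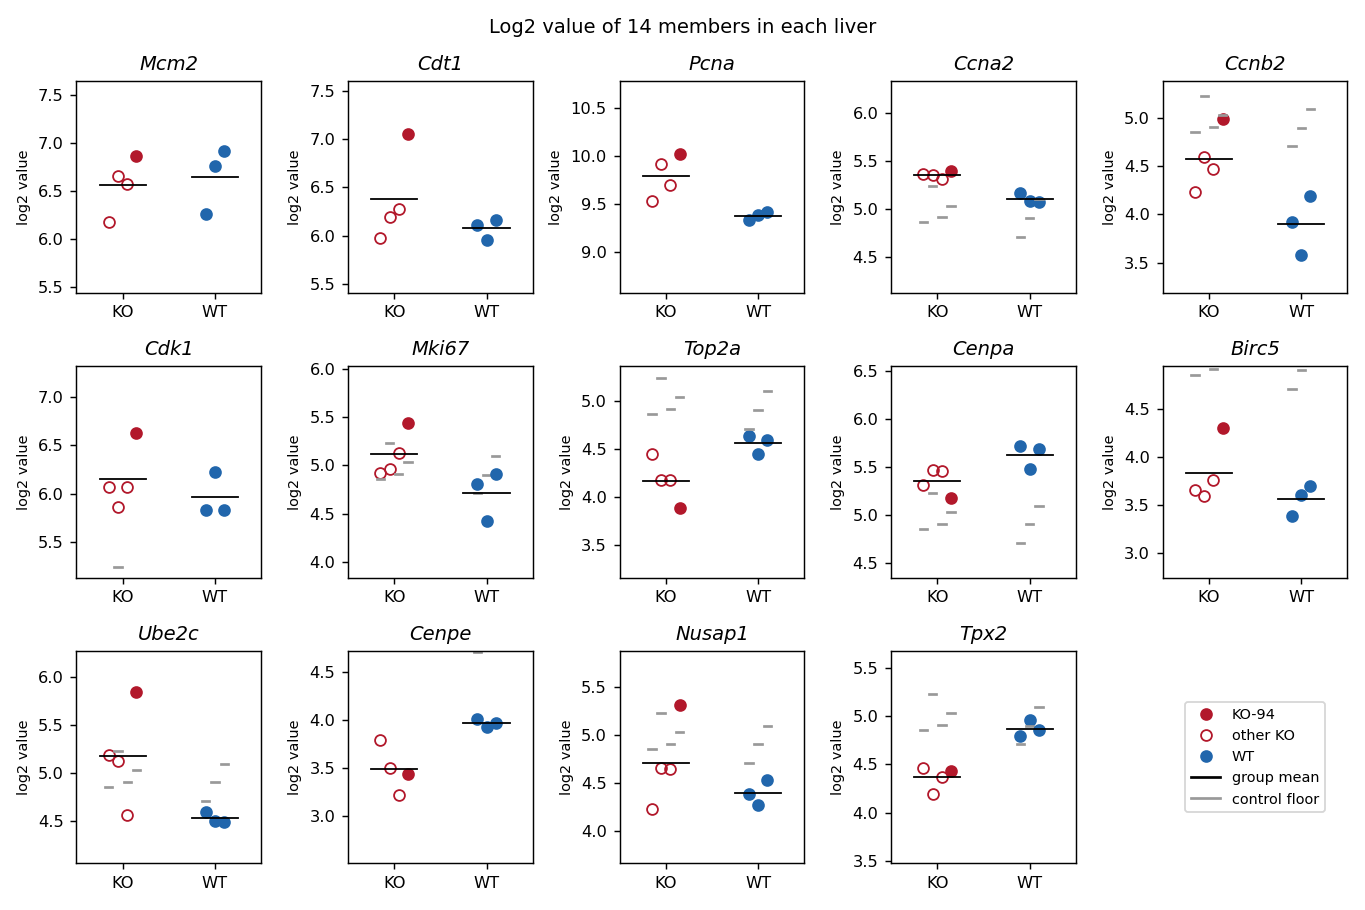
Log2 values (vertical axis, of equal span in every panel) of 14 genes in each KO and WT liver; filled red points are KO-94, open red points the other KO livers, blue points WT livers, black bars group means and short grey bars the control floor of each array. KO-94 is the highest KO liver for Cdt1 (7.06), Cdk1 (6.62) and Ube2c (5.84) and the lowest for Top2a (3.88).

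The proliferation antigen Mki67, which coats mitotic chromosomes, was 4.92, 4.97, 5.13 and 5.44 in the KO livers, against 4.81, 4.42 and 4.91 in the WT livers. The groups only just separated, since KO-03 and WT-104 differed by 0.01. Its difference was 0.40 ± 0.17 (SE; limma adjusted p = 0.277), and 1 KO liver and 2 WT livers lay at or under the floor. Top2a, the topoisomerase that untangles replicated DNA, depended on its probe set. The one used was 4.44, 4.18, 4.17 and 3.88 in the KO livers, against 4.64, 4.45 and 4.59 in the WT livers, a difference of -0.39 ± 0.14 (SE; limma adjusted p = 0.208). Another was 4.27, 4.34, 4.34 and 5.09 in the KO livers, against 4.09, 3.90 and 3.59 in the WT livers, a difference of 0.65 (limma adjusted p = 0.193 among all probe sets). Both probe sets thus separated the groups, in opposite directions, and all but the 5.09 of KO-94 lay under the floor. Cenpa, the histone that marks centromeres, was 5.32, 5.47, 5.46 and 5.18 in the KO livers, against 5.72, 5.48 and 5.69 in the WT livers. Its difference was -0.27 ± 0.12 (SE; limma adjusted p = 0.310), with KO-90 and WT-103 nearly equal.

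Of the mitotic kinases and the chromosomal passenger Birc5, none passed. Birc5, or survivin, was 3.66, 3.60, 3.77 and 4.30 in the KO livers, against 3.39, 3.61 and 3.70 in the WT livers. Its difference was 0.27 ± 0.18 (SE; limma adjusted p = 0.520), under the floor throughout. The kinases Aurka, Aurkb and Plk1 differed by -0.18, 0.02 and -0.07, with overlapping groups. They lay above the floor on 2, 0 and 3 of the 7 arrays.

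Of the genes of the spindle checkpoint and of the anaphase-promoting complex, the ubiquitin ligase that ends mitosis, none passed. Ube2c, the ubiquitin-conjugating enzyme of that complex, was 5.19, 5.13, 4.56 and 5.84 in the KO livers, against 4.60, 4.50 and 4.49 in the WT livers. KO-91 lay within the WT range and the other KO livers above it. The difference was 0.65 ± 0.25 (SE; limma adjusted p = 0.234). Of the 4 KO livers, 2 (KO-03 and KO-94) lay above the floor and 2 under it, and all 3 WT livers lay under it, so no fold is given. Cdc20, the activator of the complex, differed by -0.19 with the probe set used. Its probe set with the next highest mean was 5.18, 5.18, 5.45 and 6.52 in the KO livers, against 5.16, 4.66 and 4.90 in the WT livers. Here all KO livers lay above the WT livers, by a wide margin in KO-94 and a narrow one in KO-03 and KO-90, at a difference of 0.67 (limma adjusted p = 0.360 among all probe sets). The checkpoint kinases Bub1 and Bub1b differed by 0.12 and 0.11 and lay under the floor. Other probe sets, also under the floor, differed by -0.10 for Bub1 and by 0.40 and -0.04 for Bub1b.

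The spindle and cytokinesis genes held the single call. Tpx2, which activates Aurka and nucleates spindle microtubules, was 4.47, 4.19, 4.37 and 4.44 in the KO livers, against 4.79, 4.96 and 4.86 in the WT livers. It fell by 0.50 on the log2 scale, with an SE of 0.11 and a limma adjusted p of 0.0465. All KO livers lay under the floor, and the mean of their floors was above the WT mean, so no fold is given. The other 3 probe sets of Tpx2 differed by -0.02, 0.00 and -0.08, all under the floor, and with every probe set tested on its own the one used had an adjusted p of 0.0609. The call was also lost on leaving out KO-90, KO-91, KO-94 or any WT liver (limma adjusted p up to 0.196), and on averaging the probe sets (0.466).

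Cenpe, a kinetochore motor, was 3.79, 3.50, 3.22 and 3.44 in the KO livers, against 4.01, 3.93 and 3.97 in the WT livers. Its difference was -0.48 ± 0.14 (SE; limma adjusted p = 0.115), under the floor on every array, and its other probe set differed by 0.03. Nusap1, a spindle microtubule protein, was 4.23, 4.66, 4.65 and 5.31 in the KO livers, against 4.38, 4.27 and 4.53 in the WT livers, with a difference of 0.32 ± 0.22 (SE; limma adjusted p = 0.541). The groups overlap through KO-03. The motors Kif11 and Kif20a, the midzone protein Prc1 and the cytokinesis regulator Racgap1 had differences of -0.21, 0.10, 0.17 and 0.16, with overlapping groups and all arrays under the floor.

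The 35 genes had 84 probe sets. When each was tested on its own, 0 passed limma at an adjusted p under 0.05, against 2.28% of all 34945 probe sets. At an unadjusted limma p under 0.05 there were 10 of the 84. The share of all probe sets at that unadjusted threshold is not given here, so the 10 cannot be set against a background. Of the 26 genes with several probe sets, 15 had differences of both signs, 6 only positive and 5 only negative ones. The same split over all genes is not given here, so these counts are a description only. Mcm7 was negative in all 4 of its probe sets, from -0.37 to -0.09, each above the floor on all 7 arrays. Rrm1 was positive in all 3, from 0.13 to 0.28, with overlapping groups and KO-94 the highest KO liver in each. The Rrm1 probe set at 0.13 lay under the floor on all 7 arrays.

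**Figure D3:**
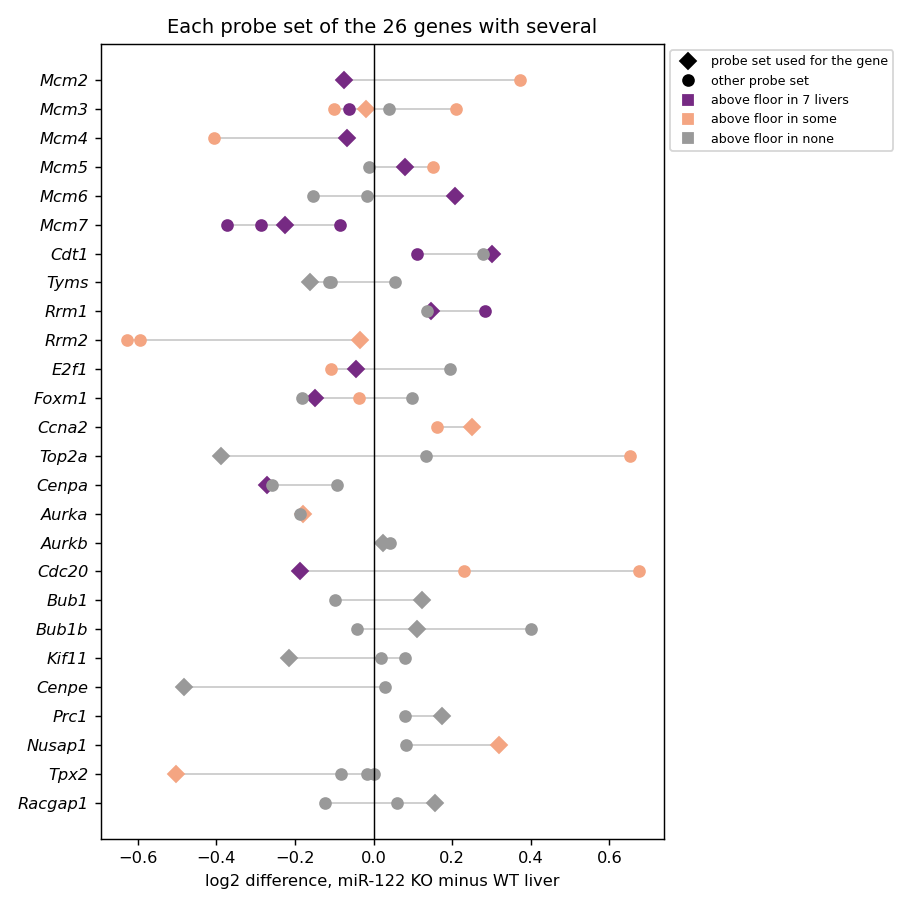
Log2 difference (KO minus WT, horizontal axis) of each probe set of the 26 genes with more than 1; diamonds are the probe sets used for the genes, circles the others, and colours tell on how many arrays a probe set lay above the control floor. Top2a and Cdc20 span from -0.39 to 0.65 and from -0.19 to 0.67.

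The knockout livers differed among themselves. KO-94 was the highest of the 4 KO livers for 25 of the 35 genes (71.4%), as it was for 38.2% of all genes, and for 12 of 12 replication genes. It was the highest of all 7 livers for 18 genes, against 28.1% of all genes. The median deviation of the 12 replication genes from their WT means was -0.20, -0.21, -0.09 and 0.53 in KO-03, KO-90, KO-91 and, last, KO-94, against -0.15, 0.00 and 0.14 in the WT livers in the order above. So KO-94 lay above the WT livers and the other 3 KO livers lay within or just below their range. For the 23 other genes the median deviation was 0.17 in KO-94 and 0.04, -0.02 and -0.01 in the other KO livers, against 0.02, -0.02 and 0.03 in the WT livers. Without KO-94 the median difference was -0.18 for the replication genes (2 positive and 10 negative). It was 0.03 for the other genes (12 positive and 11 negative) and -0.01 for all genes. Of the 35, 0 then passed in either direction. Since KO-94 was the highest KO liver for all 12 replication genes, leaving it out had to lower each of their differences. The signs without it are thus a description only.

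The WT livers were spread too: WT-27 was the lowest WT liver for 7 of the 8 licensing genes (Mcm2 to Mcm7, Cdc6 and Cdt1), as it was for 41.2% of all genes.

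**Figure D4:**
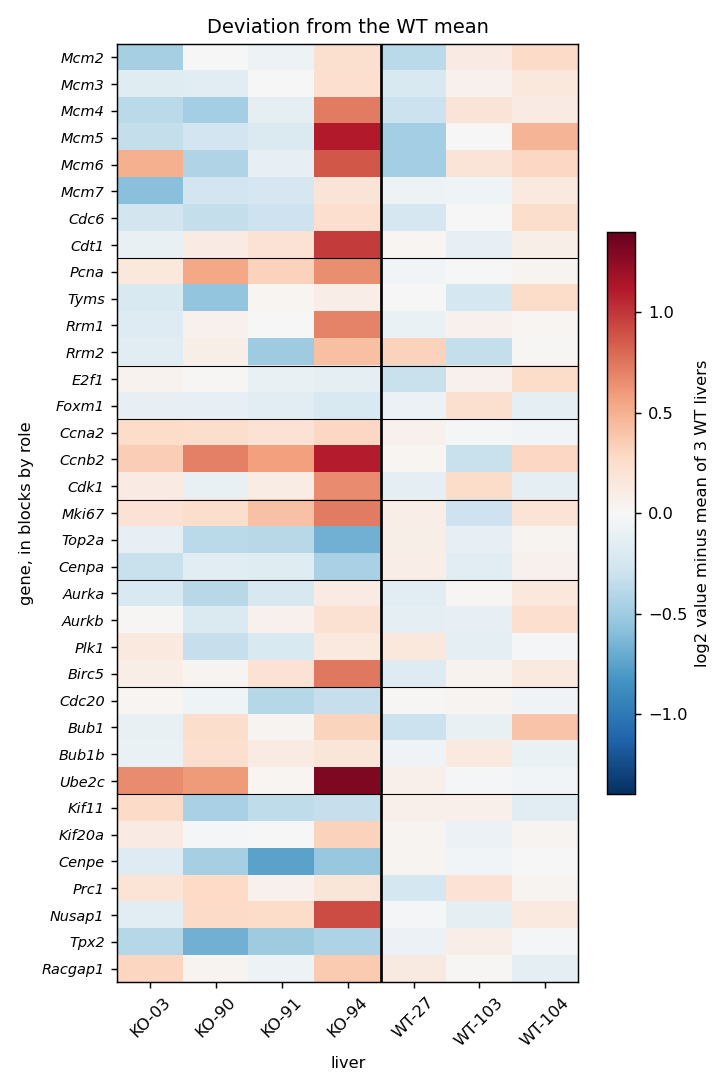
Deviation of each log2 value from the mean of the 3 WT livers (colour, in log2 units), with 35 genes in rows, in blocks by role, and livers in columns, KO left of WT. The KO-94 column is red for most replication genes, with a median deviation of 0.53, and blue for Top2a.

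Markers of other cell types were followed in the same livers, as the summed linear signal of each list in log2 units. The sum of 5 neutrophil markers was 10.28, 9.08, 9.08 and 11.15 in the KO livers in the order above, against 7.30 to 7.77 in the WT livers, and S100a8 and S100a9 passed the test while Csf3r, Mpo and Elane did not. The sum of 8 macrophage markers was 12.61, 13.02, 12.76 and 13.05 in the KO livers, against 12.24 to 12.86 in the WT livers, and that of 9 lymphocyte markers 9.30, 9.46, 9.11 and 9.16, against 8.69 to 9.07. No macrophage or lymphocyte marker passed the test (0 of 8 and 0 of 9 by limma). Ptprc gave the largest part of the lymphocyte sum, at 8.01 to 8.46 in KO livers against 7.39 to 7.85 in WT livers. Of the 9 lymphocyte markers, 8 had positive differences and 1 a negative one, and only Ptprc, 1 of 9, separated the groups. Cd3e, Cd8a and Cd4 differed by 0.01, 0.03 and -0.15. In KO livers the neutrophil sum is mostly S100a8 and S100a9, which were highest in KO-94. Elane was also highest there, at 5.29, against 5.28 in WT-103. Among the KO livers Csf3r was highest in KO-03 and Mpo, under the floor on all 7 arrays, in KO-91. In WT-27 and WT-103 the brightest of the 5 was Csf3r, at 5.84 and 5.88. The median deviation of the 5 neutrophil markers from their WT means was 1.02, 0.25, 0.33 and 0.29 in the KO livers, against -0.15, 0.09 and -0.02 in the WT livers, so KO-94 was highest for the sum but not for the median. The macrophage sum was narrowly highest in KO-94 and the lymphocyte sum was not. The sum of 5 bile duct markers was 8.30 to 9.37 in KO livers, with 9.09 in KO-94, against 7.13 to 7.33 in WT livers. Of these, Cd24a, Epcam and Krt19 passed, and Krt7 (0.37) and Sox9 (0.44) did not. The sum of 7 stellate cell markers was 12.03 to 12.42 in KO livers, highest in KO-94, against 11.47 to 11.56 in WT livers. Its largest part was Dcn. Col1a1, Pdgfrb and Dcn passed, and Des (0.36), Reln (0.34), Acta2 (0.29) and Lrat (-0.13) did not. Sums for 5 erythroid precursor and 6 endothelial markers overlapped between the genotypes, at 10.28 to 10.51 and 9.80 to 10.04 in KO livers, against 10.16 to 10.60 and 9.83 to 10.01 in WT livers. The part of these cells in the values of replication and mitosis genes was not tested.

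Further genes of these processes were read from separate lists, and the share of all genes called in either direction, 3.53%, stands as their background too. Of 50 other replication genes (origin recognition, polymerases, clamp loaders, replication protein A and flap processing among them), 47 were measured: 0 rose, 1 fell and 46 did not pass, with a median difference of 0.01. Fen1, the flap endonuclease that trims Okazaki fragments, was 8.94, 8.55, 8.96 and 9.03 in the KO livers, against 9.31, 9.66 and 9.75 in the WT livers. It fell by 0.70 on the log2 scale, with an SE of 0.16 and a limma adjusted p of 0.0469. Its other probe set differed by 0.39 in the opposite direction (limma adjusted p = 0.658 among all probe sets), above the floor on 2 arrays, and the call was lost without any liver but KO-03 (limma adjusted p up to 0.191). It was also lost with renewed quantile normalization (0.0543) and with the mean of its probe sets (0.784). Next by p were the polymerase gene Pola1 (-0.54), the clamp loader gene Rfc5 (-0.53) and the origin recognition gene Orc2 (0.47), none of which passed. With renewed quantile normalization Rfc5 passed in place of Fen1, at -0.60 (limma adjusted p = 0.0454).

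Of 55 other mitosis genes, all measured, 1 rose, 0 fell and 54 did not pass, with a median of 0.07. Kif22, a motor that moves chromosome arms, was 6.90, 7.19, 7.39 and 7.28 in the KO livers, against 6.32, 6.39 and 6.47 in the WT livers. It rose by 0.80 ± 0.13 (SE; limma adjusted p = 0.0163), and its other 2 probe sets, under the floor, differed by 0.20 and 0.57 without passing. The call was lost without KO-91 or any WT liver and with the mean of its probe sets (limma adjusted p up to 0.0804). It was also lost when probe sets ending in _x_at or _s_at, the one used among them, were left out (0.455). The securin gene Pttg1, whose product holds back chromosome separation, was 8.37, 8.79, 8.74 and 8.73 in the KO livers, against 8.61, 11.11 and 10.64 in the WT livers. WT-27 thus lay with the KO livers and WT-103 and WT-104 about 2 units above, and in all 3 probe sets of Pttg1 WT-103 was the highest liver and WT-104 the next. Its difference of -1.46 ± 0.50 (SE) had a limma adjusted p of 0.173. Leaving out 1 liver at a time gave differences from -2.22 to -0.97. Of 18 alternatives it passed in 1, without WT-27 (limma adjusted p = 0.00427), and the adjusted p reached 0.495 in the others. WT-27 was the WT liver that lay with the KO livers, so leaving it out had to widen the difference. That pass is therefore no further support. Cdc25b (0.39) and Incenp (0.32) followed by p and did not pass.

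Genes that act before S phase included 2 that rose. Of 27 regulators of G1 and growth arrest, 2 rose, 0 fell and 25 did not pass, with a median of 0.11. Ccnd1, the D-type cyclin that starts the G1 to S transition, was 8.95, 9.16, 9.37 and 9.40 in the KO livers, against 7.42, 7.60 and 6.94 in the WT livers. It rose by 1.90 ± 0.18 (SE; limma adjusted p = 0.00124), its other probe sets by 1.96 each, and it passed in all 18 alternatives. Cdkn2c, an inhibitor of the kinases that D-type cyclins activate, was 7.70, 8.48, 8.57 and 8.32 in the KO livers, against 6.63, 6.77 and 7.22 in the WT livers. It rose by 1.39 ± 0.23 (SE; limma adjusted p = 0.0140), a call lost without WT-27 or WT-103 (adjusted p = 0.0588 and 0.0774). Ccnd2, another D-type cyclin, differed by 0.60 and Ccng1, a cyclin induced by p53, by 0.77, and neither passed. The other 2 probe sets of Ccng1 were above the floor on all 7 arrays, with all KO livers above all WT livers, and rose by 1.32 and 1.18 (limma adjusted p = 0.0413 and 0.0362 among all probe sets).

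**Figure D5:**
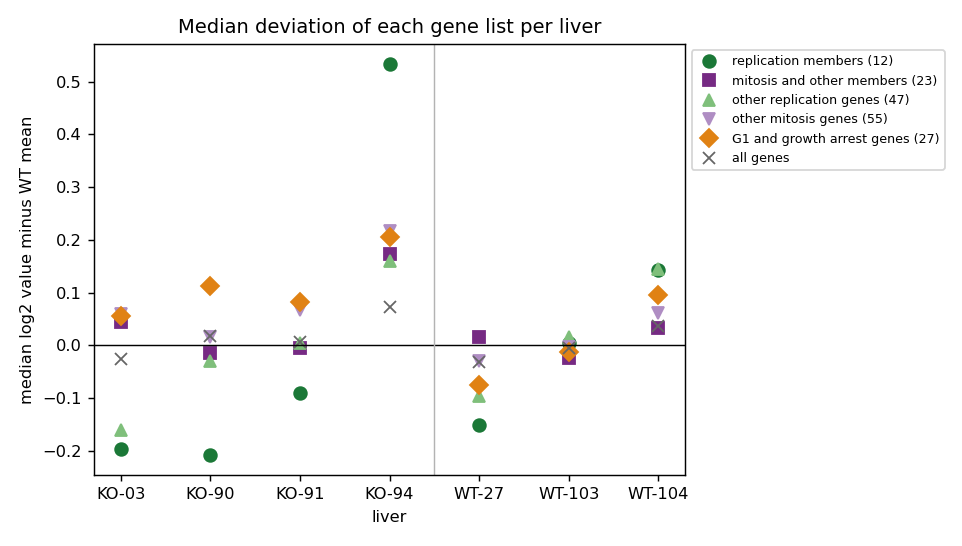
Median, over the genes of a list, of the log2 value minus the WT mean (vertical axis) in each liver, KO left of WT. The replication genes stand at 0.53 in KO-94 and between -0.21 and -0.09 in the other KO livers.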

How the data were processed

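Liver RNA of 4 miR-122 knockout and 3 wild-type mice was biotin-labelled for hybridisation to Affymetrix arrays, per the labels' protocols. The deposited values are log2 expression values per probe set, for which the authors ran RMA in Partek, as stated in the design text and in the submitters' processing notes. This method corrects background, quantile normalizes and summarises probes, and its version is not given in the sources used here. Arrays have no read depth.

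Of 45101 probe sets, 34945 named 1 gene, 932 named several and 9160 others were unnamed, besides 64 controls. RefSeq gene tables (GRCm38.p6) updated 0 symbols. Each of 18193 genes was read from the probe set whose mean over all 7 arrays was highest, which can favour one that is higher in knockout. The genotypes were compared in R 4.3.3 by limma 3.58.1 (lmFit with eBayes, two-sided tests without covariates, 5 residual and 3.99 prior degrees of freedom), with Benjamini-Hochberg adjustment over all genes. The fit was tested on simulated data. Intervals are limma's 95% intervals, unadjusted. Tables and figures were made with pandas 2.3.3 and matplotlib 3.10.9 under Python 3.11.15.

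The genes, gene lists, floor and promoter motifs were chosen with earlier results of these data known. Values per liver are given for genes that passed, the 12 with the largest absolute difference, Mki67, Top2a, Pcna, Cdk1, Ccna2 and Mcm2, and in the pathway lists for genes that passed (the 4 with the smallest p are named). Mcm5, Rrm1, the second Cdc20 probe set and the livers' values of Pttg1 were added after their values were seen. Whether the control RNAs behind the floor were added is not known here. Alternatives (priors, array weights, normalization, filters, probe sets, floor, threshold and leaving out each array) are given in the closing section. Choosing probe sets by the wild-type mean and testing each probe set on its own were added after the data were seen.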

Additional observations from a re-analysis of the deposited data

Results flagged for a closer look

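KO-94 stood apart from the other 3 knockout livers in 6 of the values examined. Its log2 value of Mcm5 was 6.85, with the others between 5.40 and 5.53, and that of Cdc6 was 3.39, with the others between 2.83 and 2.90. All Cdc6 values lay under the control floor. The median deviation from wild type in KO-94 was 0.24 for all 35 genes (others -0.10 to -0.06), 0.53 for the 12 replication genes (others -0.21 to -0.09), 0.66 for the cyclins and Cdk1 (others 0.21 to 0.26) and -0.45 for Mki67, Top2a and Cenpa (others -0.17 to -0.12). These last 3 did not go one way in KO-94: Mki67 was the highest of the 7 livers there, at 5.44, and Top2a and Cenpa the lowest, at 3.88 and 5.18, while another probe set of Top2a was highest there, at 5.09. Pttg1 in KO-03, at 8.37, lay below the other knockout livers at 8.73 to 8.79. These 7 came from 61 sets of 4 knockout values, and chance marks about 1 in 20 such sets. The sets share genes and livers, so they are not independent.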

How the results depend on the processing

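Of the 35 replication and mitosis genes (members), none was called higher in any alternative except array weights, which called 1 (Ccnb2, limma adjusted p = 0.0462). Array weights called 2 members lower (Tpx2, and Cenpe with an adjusted p of 0.0298), 909 genes higher, 344 lower, 4 other replication genes and 5 G1 genes. The count of members lower, 1 in the main result, was 0 among genes at or above the median level (10 members left), among genes with a group mean of at least 6 (9 members left), with the mean of all probe sets, at an adjusted p under 0.01 and with each probe set on its own. Other replication and other mitosis genes had 0 calls each with the mean of all probe sets, without probe sets ending in _x_at or _s_at, and at an adjusted p under 0.01, where 1 G1 gene, 141 genes higher and 31 lower were left. Above the second highest control probe set lay 24 members on all arrays, and above the median control 32, against 13 with the floor used.

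Leaving out 1 liver at a time gave 132 to 892 genes higher, against 470. The counts of genes higher were 892 (without KO-03), 251 (KO-90), 230 (KO-91), 216 (WT-27), 132 (WT-103) and 243 (WT-104). Genes lower numbered 37 to 252, against 173, with 93 (without KO-90), 62 (KO-91), 108 (KO-94), 68 (WT-27), 37 (WT-103) and 53 (WT-104). Members higher stayed at 0, members lower ranged from 0 to 2, other replication and other mitosis genes from 0 to 1, and G1 genes from 1 to 6. The median member difference ranged from -0.04 to 0.11. Members lower numbered 2 without KO-03, where Cenpe passed (limma adjusted p = 0.0293), and 0 without any other liver. G1 genes numbered 6 without KO-03 and 1 without WT-27 or WT-103.

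Some single genes turned sign. With the mean of all probe sets Mcm2, Top2a and Cdc20 differed by 0.15, 0.13 and 0.24. Without _x_at and _s_at probe sets Mcm2, Cdc20 and Fen1 differed by 0.37, 0.67 and 0.39. Mcm5 differed by -0.058 with array weights. Without single livers Mcm2 ranged from -0.27 to 0.059 (0.055 without KO-03 and 0.059 without WT-104) and Mcm5 from -0.27 to 0.32 (-0.27 without KO-94 and -0.16 without WT-27). Of 493 values of 29 named genes under these alternatives, 442 kept direction and side of the threshold, 27 lost the call, 13 gained it and 11 turned sign; the cause was not tested. No paired analysis was possible because the knockout and wild-type animals share no replicate number. Signal near the control probe sets limits the mitosis genes, most of which lay under the floor on some array.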
